A study of Mus musculus with 8 samples.

Results

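Prl2c2, Prl2c3, Prl2c5 and Prl2a1 are 4 genes of the prolactin family, a cluster of mouse genes that encode secreted hormones related to prolactin. They were taken by symbol, and had been chosen by earlier measured values of these libraries (for Prl2a1, its higher read counts in 4T1 with the Gpr56 vector; for the Prl2c genes the values are not recorded), from the 22026 genes listed, of which 15815 had a read and 26 belonged to the prolactin family. All 4 passed the filter on low counts among 11970 genes tested. Prl2a1 passed it through the 4T1 libraries and Prl2c5 through the TS/A libraries with the empty vector.

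The cells were 4T1 and TS/A, mouse mammary carcinoma lines of BALB/c origin. Cells of each line carried either a virus vector without insert or a virus vector that expresses Gpr56 (Adgrg1), an adhesion G protein-coupled receptor, as given by the sample characteristics, and each of the 4 groups had 2 libraries. All were grown in RPMI with 10% FCS, and the series' design text has them cultured with type III collagen for 72 h. The sample titles name the same pairs of groups Emp_Control and Emp_ColIII, so by the labels a difference between vectors cannot be told apart from a difference in collagen culture. No source used here says how many clones the transduced cells came from or that the 2 libraries of a group were separate cultures, so a p-value here measures only how far these libraries spread.

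The targeted gene separated the labels in 4T1 only. In CPM (read counts relative to the library total, scaled by TMM), Adgrg1 was at 2.53 and 2.77 in the 4T1 libraries with the empty vector and at 90.5 and 100.1 CPM in those given Gpr56. In TS/A the gene was at 34.8 and 16.3 CPM with the empty vector and at 22.6 and 13.3 CPM in the libraries labelled Gpr56, so the groups overlapped and no direction drawn from the label Gpr56 in TS/A rests on a higher Adgrg1 level. Library totals lay between 10510569 and 25959142 reads, which makes 3 reads worth 0.116 to 0.285 CPM. The TS/A libraries with the empty vector stood apart from each other. The chi-square per degree of freedom was 123 between them against 3.64 to 18.1 in the other groups. The differences of the Prl2c genes that use these empty libraries are also given without each. Epcam, Cdh1, Krt7 and Krt8, which mark mammary epithelium, had at most 14 reads each in any TS/A library. Of the other listed markers, Krt18 had 3109 to 4429 reads there, Krt19 747 to 1207, Krt14 15 to 47 and Krt5 at most 2. The 8 epithelial markers summed to 2138 to 3066 CPM in 4T1 and, mostly from Krt18 and Krt19, 192 to 258 CPM in TS/A. These and the other marker sums are CPM of the library total, without TMM.

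Proliferins, the products of the Prl2c genes, are glycoproteins that trophoblast giant cells of the mouse placenta secrete. They are known for promoting the growth of blood vessels and for binding the IGF2/mannose 6-phosphate receptor, and cultured mouse fibroblasts switch the genes on in response to serum and growth factors. AP-1 and the glucocorticoid receptor are known to act on a proliferin promoter. Prl2a1 encodes another prolactin-like protein of the placenta.

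The 4 genes lie on mouse chromosome 13. In GENCODE M21 on GRCm38, Prl2c3 spans chr13:12790816-12800079 and Prl2c2 chr13:12996125-13005383, both on the minus strand, and Prl2c5 spans chr13:13182715-13191923 on the plus strand. Prl2a1 is at chr13:27801654-27808729 on the plus strand, inside the cluster that also holds Prl. All 4 are protein-coding, and the genome build behind the deposited counts is not given in the sources used here.

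How far reads can be assigned to 1 copy is set by the sequences. The coding regions of Prl2c2 and Prl2c3 are both 675 bases long and are identical at 672 of them. The 3 differing bases are T14C, C200A and T319G, counted from the first base of the start codon with the Prl2c2 base first. These are the stretches around the 3 differences, in GENCODE M21 transcripts, shown because they are all that separates the 2 coding regions; the capital marks the differing base.
Prl2c2, coding bases 1 to 29: atgctcccttcttTgattcaaccatgctc
Prl2c3, coding bases 1 to 29: atgctcccttcttCgattcaaccatgctc
Prl2c2, coding bases 185 to 215: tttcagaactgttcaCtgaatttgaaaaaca
Prl2c3, coding bases 185 to 215: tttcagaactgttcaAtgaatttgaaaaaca
Prl2c2, coding bases 304 to 334: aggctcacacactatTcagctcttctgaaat
Prl2c3, coding bases 304 to 334: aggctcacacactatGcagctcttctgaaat
Of all 50-base stretches of the longest Prl2c2 transcript, 80.1% also occur in that of Prl2c3, and of 100-base stretches 63.5% do. Reads from such stretches cannot be given to 1 of these copies, so the Prl2c2 and Prl2c3 values are uncertain as single-gene values and their sum is given beside them. Prl2c5 is 93.0% identical to Prl2c2 in the coding region and 12.5% of the 50-base stretches of Prl2c2 also occur in the Prl2c5 transcript with the longest coding region. Prl2a1 is 63.9% identical to Prl2c2 and shares no 50-base stretch with it.

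The RefSeq promoter table (GRCm38.p6) held 3 of the 4 genes, without Prl2c2. The 250 bases before the start sites of Prl2c3 and Prl2c5 are identical at 241 positions, differ at 8 and have 2 gap positions. They are printed because their genes have near-identical upstream regions and very different levels, and capitals mark differing bases.
Prl2c3, chr13:12800080-12800329, minus strand: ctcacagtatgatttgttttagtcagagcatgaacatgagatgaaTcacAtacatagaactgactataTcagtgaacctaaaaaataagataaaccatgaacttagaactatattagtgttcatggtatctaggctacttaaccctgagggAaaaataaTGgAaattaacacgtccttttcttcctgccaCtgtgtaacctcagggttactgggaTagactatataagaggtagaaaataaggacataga
Prl2c5, chr13:13182466-13182715, plus strand: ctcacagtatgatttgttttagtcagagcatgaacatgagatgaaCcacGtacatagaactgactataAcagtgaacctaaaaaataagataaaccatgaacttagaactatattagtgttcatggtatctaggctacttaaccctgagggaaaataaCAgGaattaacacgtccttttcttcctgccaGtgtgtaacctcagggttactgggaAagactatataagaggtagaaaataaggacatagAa
On both strands, the AP-1 letters TGANTCA occurred in the Prl2c3 stretch, at position -209 from the start site, and not in the Prl2c5 stretch, and a differing base lies inside the match. They occur in 7.81% of 32851 promoter windows. The GATA letters AGATAA or TGATAA occurred in both stretches at position -163 and occur in 18.6% of windows. In the Prl2a1 window the octamer letters ATGCAAAT were found on the minus strand at position -102, against 1.74% of windows, and the glucocorticoid receptor letters TGTTCT and the TATA letters TATAAA were found in none of the 3. Only these exact letters were searched, so variants such as TATATAAG, which the Prl2c3 and Prl2c5 stretches hold, were not counted. A match in letters is a description and does not show a bound site.

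The lines differed in the levels of these genes. By the reads as assigned to the copies, Prl2c2 was highest of the 4 in TS/A and Prl2c3 in 4T1, and both lines expressed both. With the empty vector Prl2c3 was itself higher in TS/A than in 4T1. Prl2a1 was nearly absent from TS/A. The levels that follow are deposited RPKM (read counts scaled for transcript length and library total), which allow genes of unequal length to be compared.

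Prl2c2 stood at 6.30 and 6.10 RPKM in 4T1 with the empty vector and at 12.02 and 12.95 RPKM in the 4T1 libraries given Gpr56. In TS/A it stood at 193 and 189 RPKM with the empty vector and at 76.9 and 67.6 RPKM in the libraries labelled Gpr56. The 4 groups did not overlap, and Prl2c2 ranked 408 and 476 among all genes by RPKM in TS/A with the empty vector, against 7098 and 7152 in 4T1 with it.

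Prl2c3 was measured at 22.4 and 20.7 RPKM in 4T1 with the empty vector and at 36.5 and 44.5 RPKM with the Gpr56 vector. It was at 68.0 and 94.8 RPKM in TS/A with the empty vector and at 45.1 and 31.2 RPKM in the libraries labelled Gpr56. Both lines' libraries labelled Gpr56 overlapped, at 40.5 ± 5.66 RPKM in 4T1 and 38.1 ± 9.83 RPKM in TS/A (mean ± SD, n = 2).

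Prl2c5 was close to the detection limit throughout. Its reads numbered 0 and 1 in the empty-vector libraries of 4T1, 10 and 1 with the Gpr56 vector, 15 and 20 in TS/A with the empty vector and 5 and 4 in the TS/A libraries labelled Gpr56. Its highest level was 1.003 RPKM, in TS/A with the empty vector. Some stretches of Prl2c2 also occur in Prl2c5, as given above, and the part of the other copies' reads in these few was not tested.

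Prl2a1 was the gene most nearly confined to 1 line. In 4T1 it stood at 6.61 and 6.31 RPKM with the empty vector and at 19.7 and 18.5 RPKM with the Gpr56 vector. In TS/A its reads numbered 1 and 0 with the empty vector and 1 and 1 in the libraries labelled Gpr56.

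**Figure D1:**
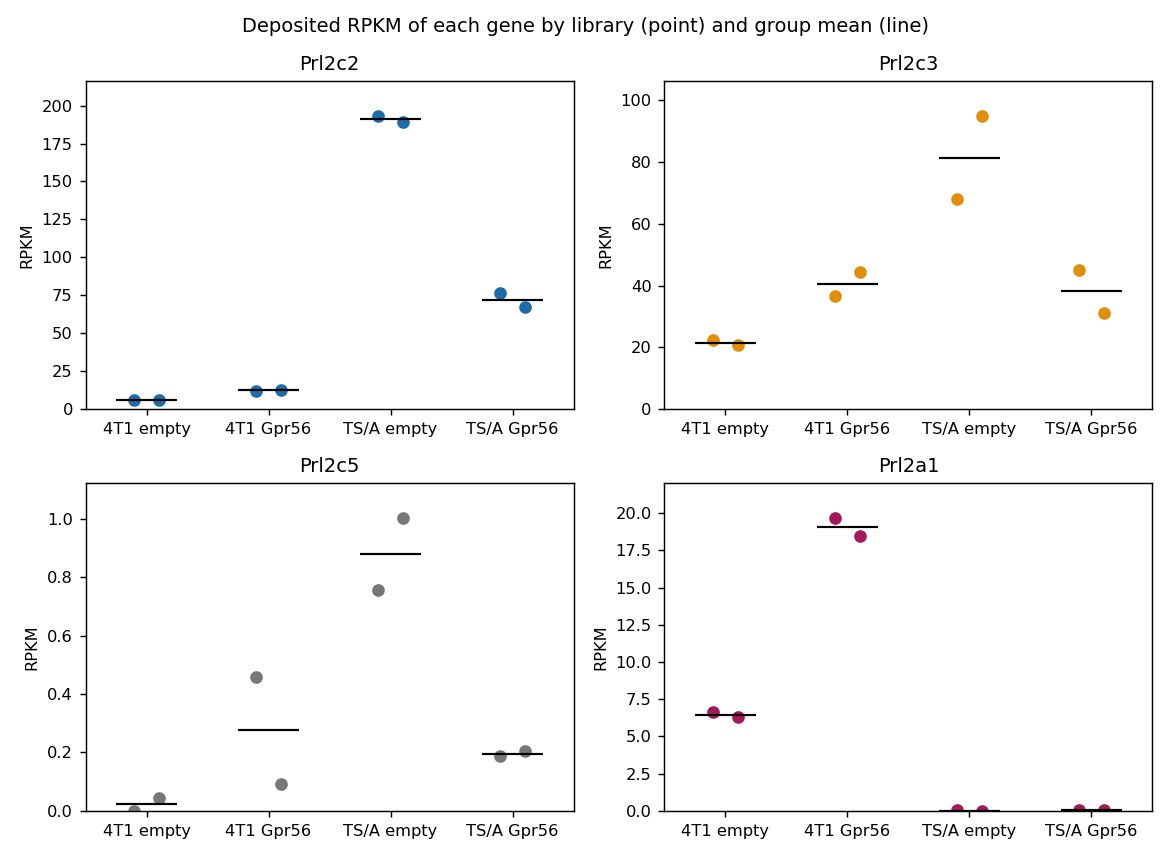
Deposited RPKM of each gene (vertical axes from 0, 1 panel per gene) in the 4 groups; points are libraries and lines are means of 2. Prl2c2 is highest in TS/A with the empty vector (193 and 189 RPKM), and Prl2a1 lies near 0 in all 4 TS/A libraries.

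Within each group the genes kept an order by RPKM. In 4T1 with the empty vector Prl2c3 led at 21.5 ± 1.17 RPKM, with Prl2a1 at 6.46 ± 0.211 and Prl2c2 at 6.20 ± 0.147 RPKM (mean ± SD, n = 2), 2 neighbours whose means differ by little more than their SDs. With the Gpr56 vector the order was Prl2c3, Prl2a1 at 19.1 ± 0.842 and Prl2c2 at 12.5 ± 0.658 RPKM, without overlap. In TS/A with the empty vector Prl2c2 led at 191 ± 2.62 RPKM ahead of Prl2c3 at 81.4 ± 19.0 RPKM. In the TS/A libraries labelled Gpr56 Prl2c2 was at 72.2 ± 6.58 RPKM, again above Prl2c3 in both libraries, and Prl2c5 came next in both TS/A groups.

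The split of Prl2c reads between the copies followed the line. Prl2c2 took 20.7 ± 0.412% of them in 4T1 with the empty vector and 22.1 ± 0.472% with the Gpr56 vector (mean ± SD, n = 2). In TS/A it took 69.7 ± 5.13% with the empty vector and 65.3 ± 3.53% in the libraries labelled Gpr56. Every TS/A library thus lay above every 4T1 library, and within each line the vector groups differed by less than the gap between lines. These shares are as the authors' counting divided the reads, and how reads that match both copies were treated is not given in the sources used here.

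**Figure D2:**
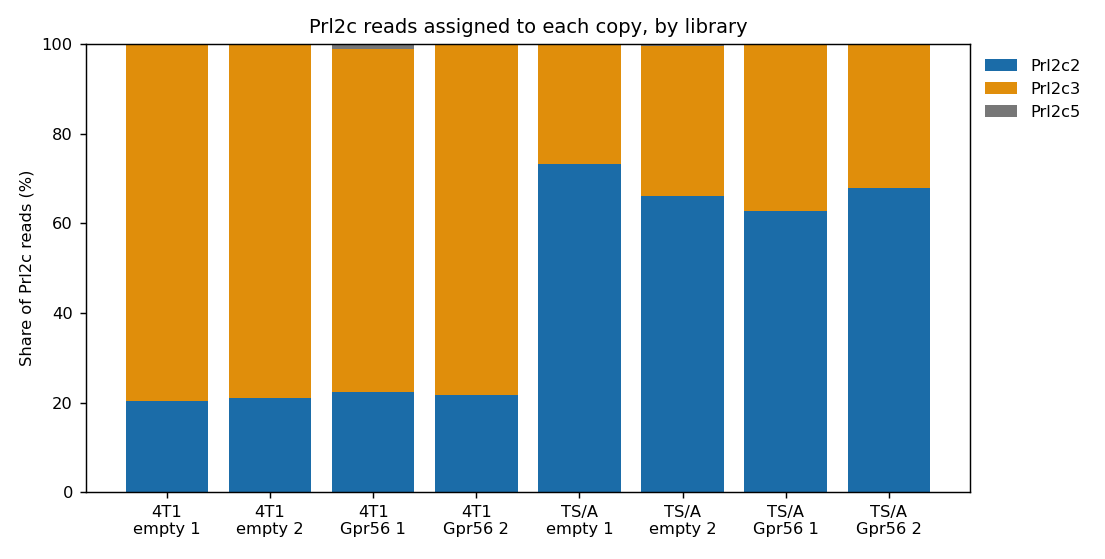
Share of Prl2c reads (%) assigned to Prl2c2, Prl2c3 and Prl2c5, 1 bar per library. Prl2c2 holds 20.4% to 22.4% in the 4T1 libraries and 62.8% to 73.3% in the TS/A libraries, with 73.3% and 66.05% in the 2 TS/A libraries with the empty vector.

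Reads fell mostly on 1 transcript of each gene. The longest Prl2c2 transcript, 842 bases in 5 exons, held 76.6% to 88.8% of the gene's reads in 4T1 and 92.8% to 95.2% in TS/A. The longest Prl2c3 transcript, 857 bases, held 92.8% to 98.6% in 4T1 and 86.8% to 91.9% in TS/A. Prl2a1 has a single listed transcript, of 884 bases in 5 exons. For Prl2c5 most reads were given to a 6-exon transcript of 971 bases.

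Between the lines with the empty vector, the Prl2c genes were higher in TS/A and Prl2a1 was lower. Prl2c2 was at 158 and 170.5 CPM in TS/A against 5.23 and 5.03 CPM in 4T1, a fold of 32.1. The log2 difference was 5.002 (SE 0.15), with an adjusted p of 3.81e-07 by edgeR's quasi-likelihood test with Benjamini-Hochberg adjustment over all 11970 genes. The fit called 5674 genes in this comparison, 47.4% of those tested, with 23.9% higher and 23.5% lower in TS/A, so a call by itself was common. Prl2c3, at 57.1 and 86.6 CPM against 20.4 and 18.8 CPM, was higher by 1.87 (SE 0.24; edgeR adjusted p = 0.000472). Prl2c5, with 35 reads against 1 read, had a ratio of 32.4 with an exact 95% counting interval of 5.44 to 1315 that covers counting error only. No test is given for Prl2c5 here, since it passed the filter on low counts through the TS/A libraries of this comparison. The 4 genes were proposed with earlier results of these libraries known, so the p-values given for them are not independent evidence where the choice rested on the same difference.

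Prl2a1 was lower in TS/A. Its 239 reads in the 4T1 libraries with the empty vector stood against 1 read in TS/A, a 4T1 to TS/A ratio of 258 at equal depth with an exact 95% interval of 45.9 to 10240 that covers counting error only. No test is given for Prl2a1 between the lines, since it passed the filter through the 4T1 libraries, where it is high. Without the first or the second TS/A empty library, the log2 difference of Prl2c2 was 5.06 or 4.94, and that of Prl2c3 2.15 or 1.54, both genes still past the threshold. For Prl2c5 it was 5.09 or 4.29. For Prl2a1 the fitted log2 difference was -9.91 or -7.03, and its size depends on the prior since 1 of these libraries holds no read.

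The line difference in the libraries labelled Gpr56 was smaller for the Prl2c genes. Prl2c2 was at 66.0 and 58.6 CPM in TS/A against 9.50 and 10.9 CPM in 4T1, a log2 difference of 2.62 (SE 0.14; edgeR adjusted p = 3.07e-06). Here 54% of all genes tested were called, 26.5% higher and 27.4% lower in TS/A. Prl2c3 at 38.8 and 27.6 CPM against 32.4 and 39.0 CPM did not pass, with a log2 difference of -0.10 (SE 0.23; edgeR adjusted p = 0.744), and Prl2c5 did not pass either (SE 0.83; edgeR adjusted p = 0.457). Prl2a1 had 573 reads in 4T1 and 2 in TS/A, a ratio of 433 with an exact 95% counting interval of 119 to 3583, a description without a test because its reads in 4T1 with the Gpr56 vector entered the choice of genes. The change in these differences between the vector groups was not tested.

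In TS/A the libraries labelled Gpr56 held less proliferin RNA than those with the empty vector. Prl2c2 was at 158 and 170.5 CPM with the empty vector and at 66.0 and 58.6 CPM with the label Gpr56. Both labelled libraries lay below both others, and the 2.64-fold lower mean was far outside the spread between libraries. The log2 difference was -1.40 (SE 0.12; edgeR adjusted p = 0.0327). Prl2c2 was the single gene called among 11970, or 0.00835% of them, with 416 genes at an unadjusted p under 0.05. The earlier values by which the Prl2c genes were chosen are not recorded and may include this difference. The call is therefore not independent evidence. The number called was 225 without the first TS/A empty library, 2933 without the second and 0 without any other 1 library. As these are whole cultures, fewer expressing cells and less RNA per cell cannot be told apart.

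The call on Prl2c2 in TS/A rested on the pooled fit, while its direction and size did not. The adjusted p was 0.0516 with library totals in place of TMM and 1 with TS/A fitted alone (log2 difference -1.40 in each). It was 0.222 to 0.289 without any 1 of the 4T1 libraries and 0.673 or 0.656 without either TS/A library labelled Gpr56. Without the first or the second TS/A empty library it was 8.0e-05 or 0.000208, with log2 differences of -1.45 and -1.34. With the 3 copies summed into 1 row before the fit, no gene was called in TS/A. The plot of settings shows the same direction in all of them.

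Prl2c3 moved the same way without passing the threshold. It was at 57.1 and 86.6 CPM with the empty vector and at 38.8 and 27.6 CPM with the label Gpr56, groups that did not overlap. The log2 difference was -1.11 (SE 0.23; edgeR adjusted p = 1), and its unadjusted p ranked 8 of 11970 genes. It passed with the DESeq2 Wald test (adjusted p = 0.0168), with no filter on low counts (0.00702) and without the first or the second TS/A empty library (0.00422 and 0.0071, log2 differences of -1.38 and -0.77). Prl2c5, at 15 and 20 reads against 5 and 4, had a log2 difference of -2.12, and -2.48 or -1.68 without the first or the second TS/A empty library. No test is given for Prl2c5 here, since it passed the filter on low counts through the TS/A libraries with the empty vector.

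Because the copies share reads, their sum is given as well, without a test. The Prl2c sum was 216 and 258 CPM in TS/A with the empty vector and 105 and 86.4 CPM in the libraries labelled Gpr56. The ratio of means was 0.403, a log2 value of -1.31 (-1.43 without the first TS/A empty library and -1.18 without the second), against differences between libraries of 1 group of 0.257 and 0.281 on the log2 scale. Of the 4 genes 3 had non-overlapping groups with the label Gpr56 lower, a pattern that 10.4% of all genes tested showed. Prl2a1, with 1 read against 2, was at the floor in both groups (edgeR adjusted p = 1).

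**Figure D3:**
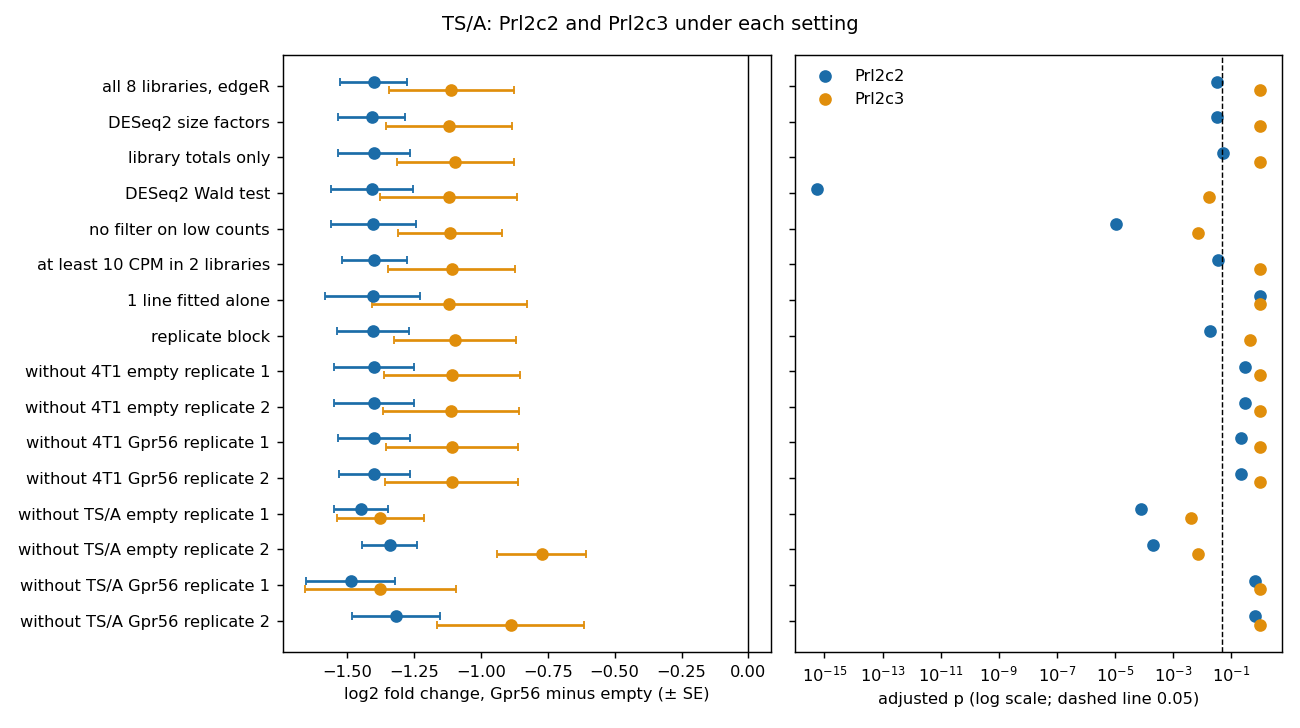
TS/A libraries labelled Gpr56 against the empty vector, for Prl2c2 and Prl2c3 under each setting: log2 fold change with its SE (left, linear axis) and adjusted p (right, log axis, dashed line at 0.05). Prl2c2 stays between -1.49 and -1.32 while its adjusted p lies on both sides of the line.

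In 4T1 the 4 genes were higher with the Gpr56 vector than with the empty vector. Prl2a1 had been named earlier for its rise in this comparison, and the other 3 genes may have been chosen with it in view, so the values are a description without a test. Prl2a1 was at 6.24 and 6.01 CPM with the empty vector and at 18.3 and 17.1 CPM with the Gpr56 vector, a 2.89-fold difference and a log2 difference of 1.53 (SE 0.21). Both Gpr56 libraries lay above both others.

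For Prl2c2 and Prl2c3 in 4T1 the difference was smaller. Prl2c2 was at 5.23 and 5.03 CPM against 9.50 and 10.9 CPM, a log2 difference of 0.98 (SE 0.15). Prl2c3 was at 20.4 and 18.8 CPM against 32.4 and 39.0 CPM, a log2 difference of 0.86 (SE 0.24). The Prl2c sum was 25.6 and 23.9 CPM without Gpr56 and 42.4 and 49.97 CPM with it, 1.86-fold higher.

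Prl2c5 had 1 read with the empty vector and 11 with the Gpr56 vector, 10 of them in 1 library, and the ratio of 13.7 had an exact 95% counting interval of 1.99 to 590. In CPM, groups did not overlap for 4 of 4 genes, for Prl2c5 only because 1 read weighs more in the smaller library. Of all genes tested 29.5% were higher without overlap in this comparison. The fit called 0.226% of genes here and 22.8% with 4T1 fitted alone. Nothing is read from the 4 of 4, since the comparison entered the choice of genes.

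**Figure D4:**
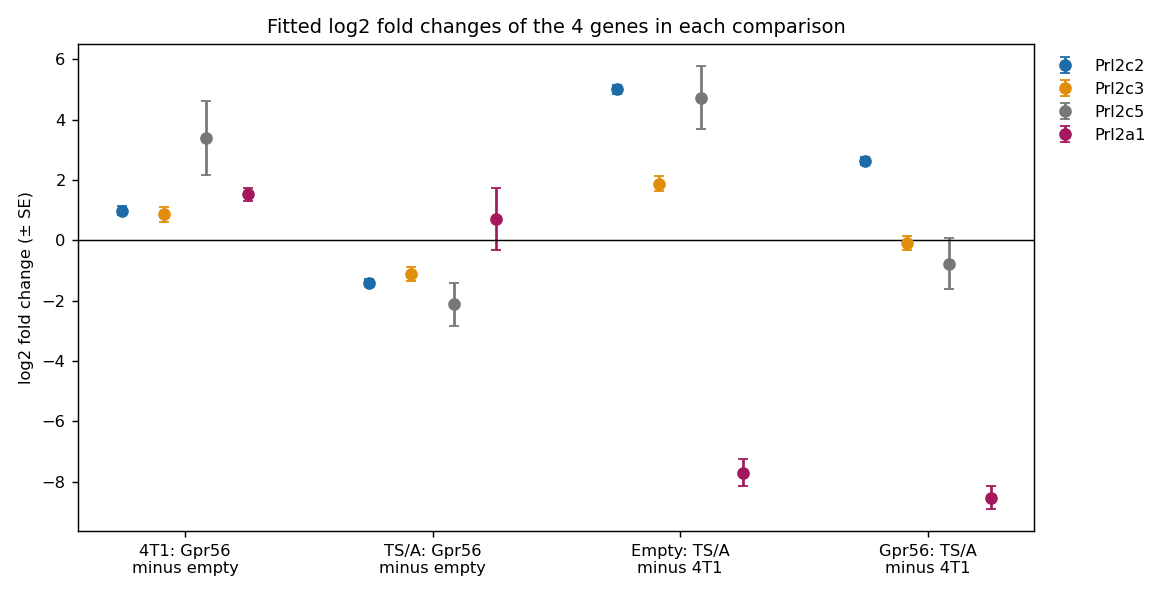
Fitted log2 fold changes (vertical axis) with SE of the 4 genes in the 4 comparisons. The 3 Prl2c genes lie above 0 in 4T1 and below 0 in TS/A for Gpr56 minus empty, and Prl2a1 lies far below 0 in both comparisons of the lines.

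Markers moved beside these differences. In 4T1, where all 4 genes were higher with the Gpr56 vector, the epithelial markers also summed higher, at 2981 to 3066 against 2138 to 2169 CPM. Of 20 trophoblast markers 8 had no read in any library, among them Cdx2, Hand1, Tpbpa and Ctsq, and the list summed to 48.9 and 49.4 CPM in the empty-vector libraries of 4T1, 62.3 and 69.4 CPM in those given Gpr56 and 4.34 to 10.9 CPM in TS/A. Gata3, which mammary epithelium also expresses, gave 38.1 and 38.0 CPM of the sum in 4T1 with the empty vector. Eomes had 108 and 119 reads in the 4T1 libraries without Gpr56, 210 and 123 in those given Gpr56 and 1 to 7 in TS/A. These are raw reads, and the second 4T1 library given Gpr56 held 10510569 reads in total. The other 4T1 libraries held 17903763 to 21625026. Plac1 had 39 to 79 per 4T1 library and 6 to 9 per TS/A library. Gata2, also on the list, went the other way between the lines, with 2 to 12 reads per 4T1 library and 18 to 53 per TS/A library. The 7 fibroblast markers summed to 141 to 354 CPM in TS/A and 8.64 to 15.4 CPM in 4T1, and in TS/A the 2 empty libraries lay at 354 and 141 CPM with the libraries labelled Gpr56 between them. Col1a1 gave most of the TS/A sum, with 2572 to 7591 reads against 10 to 37 in 4T1. Pdgfrb had 36 to 218 reads in TS/A and at most 3 in 4T1. Pdgfra had 156 to 366 in TS/A and 88 to 284 in 4T1, and Dcn, Lum, Col1a2 and Col3a1 had at most 7 in any library. Of the 7 listed markers of pituitary lactotrophs 6 had no read, Prl among them, and immune and endothelial markers summed to at most 0.897 CPM in every library. The part of these markers in the results was not tested.

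The rest of the family was nearly silent. Of 22 other prolactin-family genes 7 had no read, Prl among them, and 4 reached 10 reads in a library: the placental lactogen I genes Prl3d1, Prl3d2 and Prl3d3, which resemble each other closely, and Prl7c1. None of the 4 passed for the vectors in 4T1, nor did Prl3d1, Prl3d2 or Prl3d3 in TS/A (edgeR, none at an unadjusted p under 0.05). Prl7c1 had no read in TS/A, so its outcome there was fixed. The fit called 0.226% of all genes in 4T1 and 0.00835% in TS/A. Medians were 0.18 in 4T1 and, without Prl7c1, -0.134 in TS/A, against 0 and -0.011 for all genes. Together the 22 genes summed, in CPM of the library total, to 4.28 to 5.46 CPM in 4T1 and 0.655 to 1.43 CPM in TS/A. Prl7c1 lies 20850 bases from Prl2a1. It had 11 and 12 reads in the empty-vector libraries of 4T1 (0.619 and 0.564 CPM). With the Gpr56 vector it had 30 and 9 reads in 4T1 (1.404 and 0.844 CPM), and it had 0 in all TS/A libraries. The 4 genes passed the filter on low counts mainly through the 4T1 libraries, where they are higher, so no test between the lines is given for them. With the empty vector Prl3d2 was at 0.502 CPM in TS/A and 2.03 CPM in 4T1, and Prl3d3 at 0.122 and 1.23 CPM. Prl3d1 was at 0.129 and 0.361 CPM. In the libraries labelled Gpr56 Prl3d1 was at 0.184 CPM in TS/A and 0.890 CPM in 4T1, and Prl3d2 at 0.337 and 1.36 CPM. Prl3d3 was at 0.115 and 0.539 CPM there.

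The receptor genes Prlr, Igf2r and Ghr were expressed at unequal levels. Prlr, the prolactin receptor, had 0 reads in all 8 libraries, which allows at most 0.116 to 0.285 CPM per library. Igf2r, the receptor to which proliferin is known to bind, stood at 141 and 135 CPM in 4T1 with the empty vector and at 117 and 126.5 CPM with the Gpr56 vector. The TS/A libraries ran from 57.2 to 86.3 CPM. Ghr, the growth hormone receptor, lay between 21.6 and 27.4 CPM in every library.

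Of the 22 genes of prolactin receptor signalling 15 were tested. In the fit of all 8 libraries none passed for the vectors in either line (edgeR; 1 gene at an unadjusted p under 0.05 in 4T1 and 2 in TS/A), with medians of 0.012 in 4T1 and -0.074 in TS/A against 0 and -0.011 for all genes. The DESeq2 Wald test called 4 of the 46 list genes tested in 4T1 and 0 in TS/A. In TS/A the most abundant of them, Ccnd1 and Ptpn11, which encodes a phosphatase, had log2 differences of -0.14 (SE 0.13) and -0.082 (SE 0.17). With 4T1 fitted alone 2 of 14 rose and 3 fell, when 22.8% of all genes were called, 11.5% higher and 11.3% lower, and the median was 0.0065 against -0.00040. Socs1, a feedback inhibitor of JAK kinases, rose from 3.71 and 3.38 to 7.68 and 7.50 CPM (log2 1.10, SE 0.20; edgeR adjusted p = 0.00125). Stat3 rose by 0.31 (SE 0.06; edgeR adjusted p = 0.00258). Ccnd1, the cyclin D1 gene, Id2 and Igf2r fell by 0.27, 0.73 and 0.18 on the log2 scale (edgeR adjusted p = 0.00123, 0.00632 and 0.0397).

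Between the lines with the empty vector 6 of the 15 were higher and 3 lower in TS/A, with a median of 0.11 against 0.015 for all genes. Of all genes 23.9% were called higher and 23.5% lower there. Csn3, the kappa-casein gene, is among those higher, with 29 and 38 reads in TS/A against 1 and 0 in 4T1. It passed the filter on low counts through the TS/A libraries, so its p-values between the lines are not given. Csn1s1, Csn2 and Wap had no read anywhere. Socs1 and Jak2 were also higher (edgeR adjusted p = 0.00255 and 0.00549), and Ccnd1, Igf2r and Ptpn11 lower (0.000355, 0.00365 and 0.00761). In the libraries labelled Gpr56 the counts were 4 higher and 4 lower, against 26.5% and 27.4% of all genes, with a median of -0.27 against -0.0023. There Csn3 had 84 and 152 reads in TS/A against 1 and 2 in 4T1. Id2 and Socs3 were higher in TS/A (edgeR adjusted p = 0.00449 and 0.00565) and Ccnd1, Ptpn11 and Cish lower (0.000572, 0.00325 and 0.0156).

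A list drawn up around regulators of proliferin genes gave 16 tested of 18. It holds AP-1 subunits, glucocorticoid receptor genes, GATA and other transcription factors, and the glucocorticoid targets Fkbp5, Tsc22d3 and Per1. Counts over the list therefore mix regulators and targets. In the fit of all 8 libraries none passed for the vectors in either line by edgeR. At an unadjusted p under 0.05 (edgeR) were 3 in 4T1 and 0 in TS/A. Medians were 0.14 in 4T1 and -0.081 in TS/A, against 0 and -0.011 for all genes. Tfap2c had no read in TS/A, so its outcome there was fixed, and the TS/A median without it was -0.0945. In TS/A the most abundant, Junb and Fosl1, had log2 differences of -0.095 (SE 0.16) and 0.020 (SE 0.21). With 4T1 fitted alone 5 of 16 rose and 1 fell, against 11.5% and 11.3% of all genes, with a median of 0.15 against -0.00040. Jund rose from 76.7 and 117.8 to 190 and 175.5 CPM (log2 0.91, SE 0.13; edgeR adjusted p = 0.000117). Junb rose from 198 and 263 to 373.5 and 325 CPM (log2 0.60, SE 0.10; edgeR adjusted p = 0.000484). Per1, a clock gene that glucocorticoids induce, rose by 0.42 (edgeR adjusted p = 0.015), while Fkbp5, another glucocorticoid target, fell by 0.43 on the log2 scale (edgeR adjusted p = 0.000209).

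Between the lines the genes of this list of regulators and glucocorticoid targets split. With the empty vector 4 of 16 were higher and 6 lower in TS/A, against 23.9% and 23.5% of all genes, with a median of -0.18 against 0.015. Tsc22d3, a glucocorticoid target, Junb and Fos were higher (edgeR adjusted p = 0.00207, 0.00499 and 0.00536), and Gata3, Atf3 and Tfap2a lower (0.000395, 0.00106 and 0.00466). In the libraries labelled Gpr56 3 were higher and 7 lower, against 26.5% and 27.4% of all genes, with a median of -0.33 against -0.0023. Tsc22d3, Gata2 and Nr3c1, the glucocorticoid receptor gene, were higher in TS/A (edgeR adjusted p = 0.0002, 0.00513 and 0.0492) and Gata3, Atf3 and Jund lower (0.000153, 0.000393 and 0.000447).

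Of 14 angiogenesis partners 12 symbols were listed and 11 tested. None passed for the vectors in the fit of all 8 libraries (edgeR; 2 at an unadjusted p under 0.05 in 4T1, 0 in TS/A). In that fit the medians were -0.18 in 4T1 (-0.072 without Thbs2, which had 1 read in each empty library and 0 with the Gpr56 vector) and -0.014 in TS/A. In TS/A the most abundant, Cyr61 and Vegfa, had log2 differences of 0.10 (SE 0.12) and 0.19 (SE 0.13). With 4T1 fitted alone 4 of 9 fell and none rose, against 11.3% and 11.5% of all genes, with a median of -0.19 against -0.00040. Thbs1, an inhibitor of vessel growth, fell by 0.47 on the log2 scale, from 477 and 479 to 337 and 353 CPM (SE 0.05; edgeR adjusted p = 2.0e-05). Vegfa, the main vascular growth factor, fell from 23.7 and 27.4 to 16.8 and 14.5 CPM (edgeR adjusted p = 0.000809). Angpt1 fell from 28 and 31 reads to 4 and 0. It is given without a p-value, since it passed the filter through the empty-vector libraries.

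Between the lines with the empty vector 5 of 11 partners were higher and 5 lower in TS/A, against 23.9% and 23.5% of all genes, with a median of 0.33 against 0.015. Vegfa and Pgf were higher (edgeR adjusted p = 1.5e-05 and 6.0e-05) and Ctgf, Cyr61 and Vegfc lower (3.8e-07, 3.9e-05 and 0.00025). Fgf2 had 268 and 72 reads in TS/A against 7 and 6 in 4T1. It passed the filter on low counts mainly through the TS/A libraries, so its p-values between the lines are not given. Ctgf, a matricellular protein gene, was at 22.7 and 20.5 CPM in TS/A against 427 and 439 CPM in 4T1. In the libraries labelled Gpr56 the counts were 5 higher and 4 lower, against 26.5% and 27.4% of all genes, with a median of 0.11 against -0.0023. Vegfa and Pgf were again higher (edgeR adjusted p = 2.3e-06 and 5.7e-05) and Ctgf, Cyr61 and Vegfc lower (2.9e-07, 0.000143 and 0.000311). Fgf2 had 172 and 105 reads in TS/A against 6 and 6 in 4T1.

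The list counts moved when 1 TS/A empty library was left out, and so did the number called among all genes. Of the 46 list genes tested, none was called for the vectors in TS/A with all libraries, where 0.00835% of all genes were. Between the lines with the empty vector 32 were called with all libraries, where 47.4% of all genes were. Counts between the lines include genes that passed the filter mainly through 1 line, among them Prl7c1, Csn3, Tfap2c, Angpt1, Fgf2 and Thbs2.

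**Figure D5:**
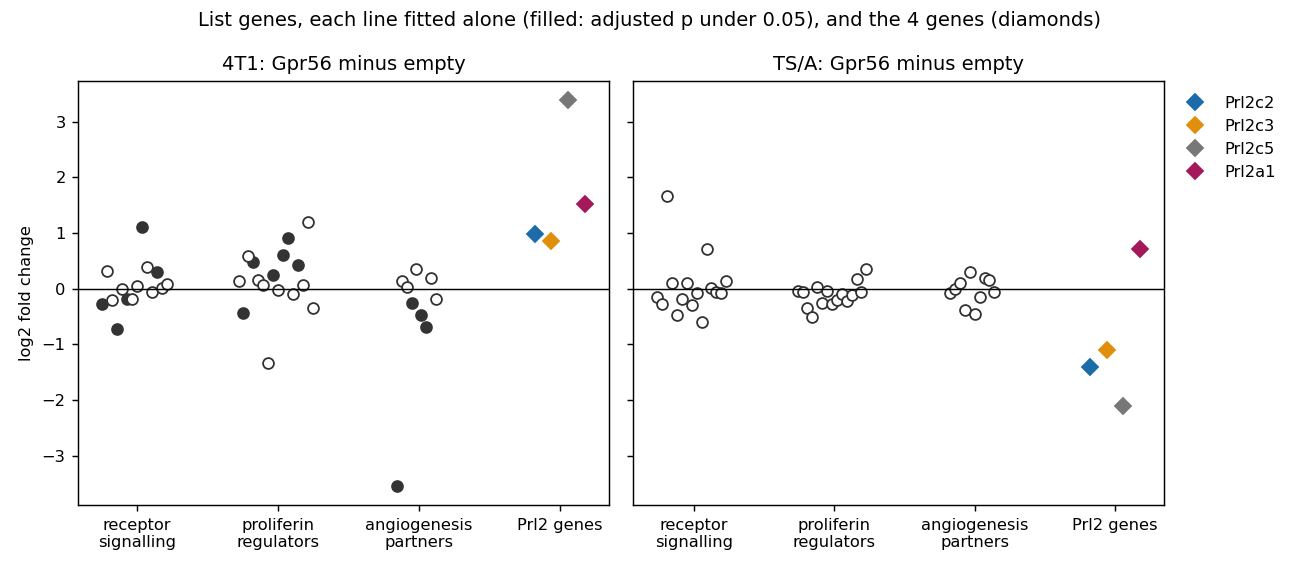
Log2 fold changes (vertical axis), Gpr56 minus empty, of the genes of 3 lists in each line fitted alone (circles, filled where the adjusted p is under 0.05) and of the Prl2 genes from the fit of all 8 libraries (diamonds). In 4T1 2 genes of the first list rose and 3 fell, 5 of the second rose and 1 fell, and 4 of the third fell, where 22.8% of all genes were called; no circle is filled in TS/A.

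The nearest tested genes on either side of the Prl2c genes, which lie 165697 to 571319 bases from them, differed little. Ero1lb, which encodes an oxidase of the endoplasmic reticulum, had log2 differences of 0.041 (SE 0.26) in 4T1 and 0.048 (SE 0.25) in TS/A for the vectors, and 0.21 (SE 0.25) between the lines with the empty vector. Gpr137b on the other side had 0.20, 0.078 and -0.34 (SE 0.13 each). None of these 6 values passed the threshold (edgeR adjusted p from 0.0555 to 1). In the libraries labelled Gpr56, Gpr137b was lower in TS/A by 0.47 on the log2 scale (edgeR adjusted p = 0.0153) and Ero1lb did not pass (0.498). Gm11361, the nearest tested gene on 1 side of Prl2a1, lies 448799 bases from it. In the libraries labelled Gpr56, Gm11361 was higher in TS/A, at 481 against 133.5 CPM (edgeR adjusted p = 0.012). It did not pass in the other 3 comparisons (0.0582 to 1). Prl7c1, on the other side of Prl2a1, was lower in TS/A in the libraries labelled Gpr56, as Prl2a1 was.

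By correlation of log2 CPM over the 8 libraries, the genes most like Prl2a1 among 9085 candidates were Myh14, Acap1, Sox13, Tent5b and Stk4, with Pearson's r from 0.9984 to 0.9987. Myh14, a nonmuscle myosin heavy chain gene, stood at 6.30 CPM in 4T1 with the empty vector, at 20.6 CPM with the Gpr56 vector and at 0 in TS/A, close to the steps of Prl2a1. The genes most like the Prl2c sum were Tram1, Agfg1, Sppl2a, Tsn and Ss18, with r from 0.9653 to 0.9742. Tram1, a translocon component gene, ran from 79.7 CPM in 4T1 with the empty vector to 134 CPM in TS/A with it, a far narrower range than the 24.8 to 237 CPM of the Prl2c sum. The libraries fall into 2 lines and share their depth and scaling, so these correlations only describe the pattern. Among the 4 genes, Prl2c2 and Prl2c3 had an r of 0.824 and Prl2c2 and Prl2a1 one of -0.917.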

How the data were processed

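Per the labels' protocols, the RNeasy Mini Kit gave total RNA and the TruSeq RNA Library Prep Kit v2 the libraries; the latter marks no strand, so antisense reads cannot be told apart. Each deposited table lists 65042 transcripts with an RPKM and a whole-number read count, per the file headers. For the authors' aligner, counter, build and annotation: not given in the sources used here. Deposited counts were summed by gene symbol; the authors' RPKM were summed likewise and used for levels only.

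Groups follow the sample characteristics. Genes were kept by filterByExpr, scaled by TMM and tested in 1 fit of 4 groups with edgeR 4.0.16 (R 4.3.3) by the quasi-likelihood test, p-values being adjusted after Benjamini and Hochberg at a threshold of 0.05; SE is the log2 fold change over the square root of F. Alternatives were DESeq2 1.42.0 and its size factors, library totals, other filters, 1 line alone, a replicate block, leaving out each library and summed copies. The pipeline was tested on simulated data. Counting intervals are exact, at 95%.

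The genes, lists and tests were chosen with earlier results of these data known. Named list genes are up to 3 each way past the threshold by p in a comparison (4T1: fitted alone), or others a sentence turns on, such as Prlr and Ghr, chosen after their values were seen. Genes like a member are the 5 highest correlations among genes that reach a mean of 10 CPM in a group, on log2 CPM (prior count 2).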

Additional observations from a re-analysis of the deposited data

Results flagged for a closer look

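Prl2c2, Prl2c3, Prl2c5 and the Prl2c sum moved in opposite directions in the 2 lines between the vector groups. In 4T1 both libraries with the Gpr56 vector lay above both with the empty vector, by 0.98 for Prl2c2, 0.86 for Prl2c3, 3.39 for Prl2c5 and 0.90 for the sum on the log2 scale. For Prl2c5 this rests on 0 and 1 reads against 10 and 1, and the libraries with 1 read each are ordered only by their depth. In TS/A both libraries labelled Gpr56 lay below both others, at -1.40 for Prl2c2, -1.11 for Prl2c3, -2.12 for Prl2c5 and -1.31 for the sum. The difference between the lines was not tested, since the 4T1 values entered the choice of genes. Without overlap in either line, 331 of 11970 genes (2.77%) were higher in 4T1 and lower in TS/A. The 3 copies share reads and are not 3 separate observations. Adgrg1 itself was higher in 4T1 with the Gpr56 vector and did not differ past the threshold between the TS/A groups (log2 -0.51, SE 0.35; edgeR adjusted p = 1).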

How the results depend on the processing

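With n = 2 the calls moved more than the sizes. Prl2c2 in TS/A lost its call with library totals (-1.40, adjusted p 0.0516), with TS/A alone (-1.40), and in 6 of the 8 fits without 1 library, over which its log2 change ran from -1.49 to -1.32. Prl2c3 in TS/A gained a call with the DESeq2 Wald test (-1.12) and no filter (-1.115), and ran from -1.38 to -0.77 without 1 library. Prl2c2 in 4T1 ran from 0.89 to 1.08 without 1 library. The replicate block changed no call of the 4 genes; replicate numbers share only a number, with correlations of deviations of -0.021 in 4T1 and 0.313 in TS/A, and under the block 130 genes passed in 4T1. Genes past the threshold in 4T1, 27 as reported, numbered 261 with DESeq2, 266 without a filter, 2588 with 4T1 alone, and 0 or 1 without a 4T1 library, 4 without a TS/A library labelled Gpr56 and 1285 or 1269 without a TS/A empty library. In TS/A, 1 as reported, they numbered 0 with library totals, 10 with DESeq2, 8 without a filter, 0 with TS/A alone, 0 with copies summed, and 225 or 2933 without a TS/A empty library (0 without another). Between lines, 5674 and 6462 as reported, they ran from 3335 (without 4T1 empty library 1) to 7853 and from 4237 (without 4T1 Gpr56 library 1) to 8536. List members past the threshold in 4T1, 0 as reported, numbered 4 with DESeq2, 3 without a filter, 15 with 4T1 alone, 1 with the replicate block and 0 to 8 without 1 library; in TS/A they numbered 0 to 14, and between lines with the empty vector, 32 as reported, 21 with at least 10 CPM in 2 libraries. The cause of these moves was not tested. By deposited RPKM, an alternative chosen after seeing the data, the Prl2c sum in TS/A was -1.31. Depth limits Prl2c5 and, in TS/A, Prl2a1.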
